A study of Mus musculus with 6 samples.

Results

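The authors deposited genomic clusters with small RNA reads from mouse pachytene spermatocytes, each named by a number or with the prefix piC. The numbered clusters described here were chosen by their measured reads: a sum of at least 40 over the 4 small RNA libraries, with an absent cluster taken as 0. This rule chose 296 of the 2260 numbered clusters, out of 4944 clusters of both kinds with reads in any library. The sources used here do not say what separates numbered from piC clusters. The libraries came from wild type testes (WT, 2 libraries), from Alkbh1-/- testes (1 library) and from testes homozygous for a gene trap in Tzfp, written TzfpGTi/GTi (1 library). The Alkbh1 line lacks exon 6 and was crossed back to C57/BL6. In the Tzfp line a trap with a splice acceptor was inserted upstream of exon 1 in an embryonic stem cell clone, from which the mice were bred. ALKBH1 is a dioxygenase of the AlkB family, and TZFP (now Zbtb32) is a zinc finger transcription repressor that is abundant in testis. The labels give no ages and do not say whether libraries came from separate animals or pools, so a p-value reflects only how far the libraries scatter, and that scatter may be technical.

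Pachytene spermatocytes make very large amounts of PIWI-interacting RNAs (piRNAs), which are small RNAs carried by the PIWI proteins MILI and MIWI. They are cut from long, mostly single-stranded transcripts of discrete genomic clusters, many of which are switched on at pachytene by the transcription factor A-MYB. Most of these transcripts lie between genes and hold few transposon sequences, unlike the piRNA sources of fetal germ cells. The deposited tables hold no read lengths or sequences, so that reads of the clusters are piRNAs was not tested, and they are called small RNA reads here.

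The libraries held 10193940 and 15319520 cluster reads in WT replicates 1 and 2, 7306115 in Alkbh1-/- and 14760893 in TzfpGTi/GTi. In a messenger RNA table of 1 WT and 1 Alkbh1-/- library, the 13 matched of 14 markers of meiotic spermatocytes summed to 13186 and 12415 CPM (counts per 1000000). Of these 13, 2 were at least 1.5-fold higher in the Alkbh1-/- library and 0 were that much lower. Markers of Sertoli cells, the supporting cells of the tubule, summed to 2495 and 1261 CPM, and 8 of 9 were at least 1.5-fold lower in the Alkbh1-/- library. Markers of round spermatids summed to 1119 and 1384 CPM (5 of 8 at least 1.5-fold higher), of spermatogonia to 153 and 198 (3 of 6), of Leydig cells to 119 and 165 (6 of 7, with 1 lower) and of blood and endothelium to 5.84 and 8.02, with Hba-a1 at 0 in WT. No such table was analysed here for TzfpGTi/GTi. In these bulk samples fewer cells of a type and less RNA per cell cannot be told apart. Counts over the whole Alkbh1 gene were 20.8 CPM in WT and 20.4 CPM in Alkbh1-/-, which does not test the loss of exon 6.

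The numbered clusters that passed the floor, chosen by their reads, held almost all of the reads that fell in clusters. Reads outside clusters are not part of these totals. In WT replicate 1 they took 93.4% of cluster reads, with a 95% binomial interval (Wilson) of 93.36% to 93.39%, and in WT replicate 2 93.3% (93.25% to 93.27%). The share was 93.0% (92.95% to 92.99%) in Alkbh1-/- and 93.3% (93.31% to 93.34%) in TzfpGTi/GTi. These intervals cover counting error only, since without molecular identifiers PCR copies count as separate reads. The 1913 piC clusters above the same floor took between 6.56% and 6.96% of reads, and all clusters under it took between 0.0416% and 0.0678%. Nearly every one of the 296 was found in every library, which the floor on summed reads itself favours: 295 had reads in all 4, and cluster 2706 on chromosome Y had reads in 3.

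**Figure D1:**
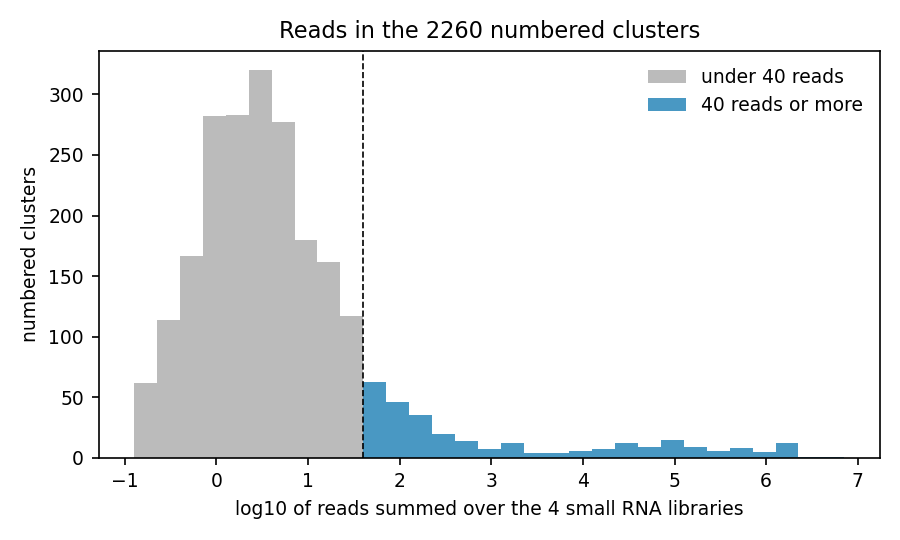
Number of numbered clusters (vertical axis) by the log10 of their reads summed over the 4 small RNA libraries (horizontal axis). Grey bars are the 1964 clusters under 40 reads and blue bars the 296 with 40 or more. The dashed line is the floor, which falls within a continuous slope of counts, and the 51 clusters with at least 100000 reads form the right edge.

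The floor did not fall in a gap, as the histogram of summed reads shows. The 3 clusters just under it, 2408, 712 and 724, had sums of 38.8, 38.7 and 38.4 reads, and the 3 just inside, 1035, 1021 and 1953, had 40, 40.05 and 40.15. There were 60 numbered clusters with sums of 30 to 40 and 32 with sums of 40 to 50. WT reads alone reached 40 in 225 of the 296, and the other 71 passed only with reads of the mutants. Sums spread over several orders of magnitude: 86 clusters had 40 to 100 reads, 96 had 100 to 1000, 27 had 1000 to 10000, 36 had 10000 to 100000 and 51 had more. The class at 1000 to 10000 reads was thus the smallest, with more clusters both below and above it.

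A small number of clusters held most of the reads. Of the WT reads in the 296 clusters, averaged over both WT libraries, 10 clusters held 50%, 21 held 80%, 32 held 90%, 45 held 95% and 70 held 99%. The first 103 held 99.9%, and the other 193 held the rest. Levels are given here as CPM, the reads of a cluster per 1000000 cluster reads of its library. The mean WT level had a median of 4.59 CPM over the 296 clusters and ran from 0.462 CPM in cluster 1953 to 82597 CPM in cluster 2249. Among the 1913 piC clusters the median was 3.37 CPM, and the highest was 8731 CPM. Both medians are of clusters above the same floor, which 1964 numbered clusters did not reach, with a median of 0.0490 CPM. The highest numbered clusters thus stood far above the highest piC cluster.

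The most abundant cluster, 2249 (mm9 chr17:27386801-27518200), stood at 84356 CPM (WT replicate 1) and 80837 CPM (WT replicate 2), at 126918 CPM in Alkbh1-/- and at 89659 CPM in TzfpGTi/GTi. It ranked first in every library, and the Alkbh1-/- library was the highest. Cluster 1301 (chr9:67523501-67622500) followed with 68455, 60995, 63097 and 62350 CPM in the same order. Cluster 882 (chr6:127716201-127805800) had 49764, 47312, 42683 and 47640 CPM, and cluster 200 (chr2:92364001-92456000) had 48269, 47616, 43362 and 45467 CPM. In clusters 882 and 200 both mutant libraries lay within or below the WT range, and the Alkbh1-/- library was the lower of them. The other 6 of the first 10 were 2405 on chromosome 18, 1031 on 7, 1297 on 9, 1709 on 12, 2098 on 15 and 716 on 5, with mean WT levels from 47095 down to 34356 CPM.

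**Figure D2:**
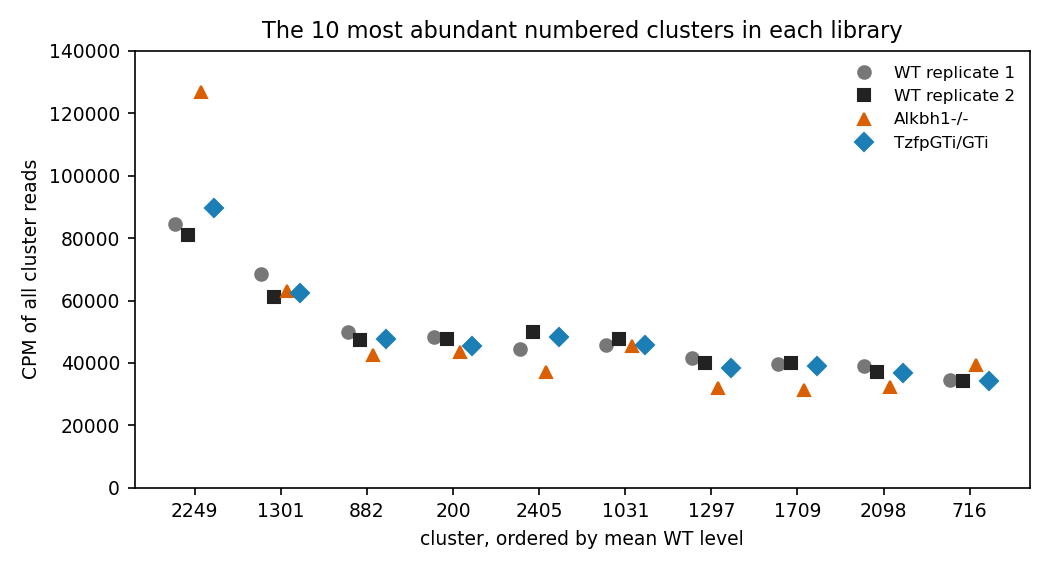
Level in CPM of all cluster reads (vertical axis, from 0) of the 10 numbered clusters with the highest mean WT level (horizontal axis). Each symbol is 1 library: grey circles and black squares are the WT replicates, orange triangles Alkbh1-/- and blue diamonds TzfpGTi/GTi. Blue diamonds sit near the WT symbols, and the orange triangle stands at 126918 CPM in cluster 2249, above the WT values of 84356 and 80837.

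In these 10 clusters the TzfpGTi/GTi library stayed close to WT. Its log2 fold over WT (edgeR, scaled by TMM) ran from -0.11 to 0.09. It was below 0 in 8 of 10, but in 9 without WT replicate 1 and in 4 without WT replicate 2, so no direction can be read from it. The Alkbh1-/- folds were wider, from -0.47 in cluster 2405 to 0.50 in cluster 2249, with a median of -0.28 and 8 of 10 below 0. None of the 10 passed the test in either comparison. Cluster 2249 lay above both WT libraries in Alkbh1-/-, with a log2 fold over WT of 0.50 ± 0.25 (SE; edgeR adjusted p = 0.431).

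The clusters were long, and the abundant ones longer. Their length had a median of 33.8 kb and ran from 4.226 kb in a cluster on chromosome 7 (chr7:132472368-132476593) to 131.4 kb in cluster 2249, 10.6 Mb in all. Starts fell on multiples of 100 bp in 295 of 296, with that 4.226 kb cluster as the exception, and 293 lengths were multiples of 200 bp, so the borders were set on a grid. The median length was 31.1 kb in clusters with 40 to 100 summed reads, 33.1 kb with 100 to 1000, 32.6 kb with 1000 to 10000, 36.9 kb with 10000 to 100000 and 53.6 kb above that. The 100 clusters with the highest WT level had a median length of 38.6 kb, the other 196 a median of 32.1 kb, the numbered clusters under the floor 29.8 kb and the tested piC clusters 25.3 kb. Across clusters, length and mean WT level had a Spearman rho of 0.39 over the 296, 0.69 over the first 100 and 0.17 over the other 196. The points of these correlations share libraries, and a longer region collects more reads, so they are descriptions only.

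Density, the level in CPM per kb of cluster, removes that part of the relation, and among the first 100 it was still higher in longer clusters, with a Spearman rho of 0.53. Density had a median of 0.174 CPM per kb over the 296 clusters and ran from 0.00843 in cluster 1953 to 712 in cluster 751. In 40 clusters it was 100 CPM per kb or more, in 62 it lay between 1 and 100, and in 194 it was under 1. The first 100 by level had a median density of 56.3 CPM per kb and the other 196 one of 0.0765. Tested piC clusters had a median of 0.156 and a maximum of 443 CPM per kb, and each of the 10 most abundant numbered clusters exceeded that maximum, with densities from 444 to 654. A dense cluster need not be long. Cluster 1215 (chr8:112640501-112660500) spanned 20 kb at a mean WT density of 571 CPM per kb, close to the 581 of cluster 2405, which spanned 81 kb.

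**Figure D3:**
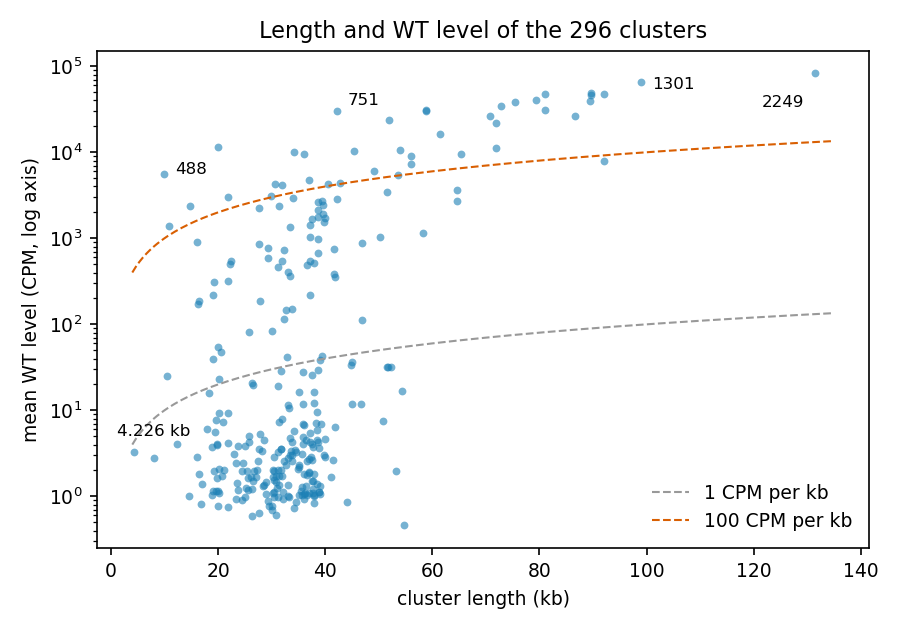
Mean WT level in CPM (vertical axis, log scale) against cluster length in kb (horizontal axis) for the 296 clusters, 1 point each. Dashed curves mark densities of 1 and 100 CPM per kb, and 5 clusters are labelled, the shortest by its length. The 40 points on or above the upper curve are the dense clusters, and 194 points lie under the lower curve at similar lengths.

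Some of the regions overlapped or shared reads, which affects how many independent loci the 296 stand for. Cluster 751 (chr5:150592401-150634600, 42.2 kb) lies inside cluster 752 (chr5:150583601-150642400, 58.8 kb) and has almost all of its reads: 308209 of 308286 in WT replicate 1 and 218095 of 218151 in Alkbh1-/-. The reads of this locus are therefore counted under both names. Cluster 488 (chr4:61880001-61890000, 10 kb) lies inside cluster 489 (chr4:61863001-61919000, 56 kb). It held 5566 of the 9119 CPM of the larger region in WT, at 557 against 163 CPM per kb, so reads were concentrated in the inner region. Overlaps were common among piC clusters: 267 of them, with 1.33% of WT reads, overlapped a cluster with more reads. With these and the smaller clusters of the numbered overlaps left out, 94.4% of the remaining reads in WT replicate 1 fell in numbered clusters. No numbered cluster above the floor overlapped a piC cluster.

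On chromosome 4, 10 clusters in a row, 456 to 465, lay within 1086.7 kb (chr4:41737601-42824300), and some had the same values. Clusters 458 and 461 both had 310.55 and 519.617 reads in the WT libraries, 384.983 in Alkbh1-/- and 325.65 in TzfpGTi/GTi. Cluster 463 matched them in 3 libraries and had 520.217 reads in WT replicate 2. Clusters 457 and 462 shared the values 119.883, 181.6, 216.85 and 131.25, and clusters 460 and 464 shared 27.65, 46.8667, 25.8 and 48. Where reads that align to several places are divided among them, such values are the same measurement under several names. The run as a whole stood at 292 and 319 CPM in the WT libraries, 404 in Alkbh1-/- and 213 in TzfpGTi/GTi. Divided reads were general among the clusters of low level: of the 199 with fewer than 1000 reads in every library, 188 had a fractional value in some library, to a tolerance of 0.01, and 11 were whole in all 4. Another run on chromosome 13, 10 clusters from 1790 to 1802 within 1861.1 kb, stood at 4404, 4961, 4293 and 4808 CPM in the 4 libraries.

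Reads were spread unevenly over the chromosomes, and the number of clusters did not follow the reads. Chromosomes 5, 7, 9 and 17 each held between 11.6% and 12.0% of the WT reads in the 296 clusters, with 23, 22, 18 and 13 clusters. Chromosome 4 had the most clusters, 33, and 5.53% of the reads, and chromosome 13 had 19 clusters and 0.745%. On several chromosomes a single cluster held nearly everything: 200 held 99.96% of the reads of the 6 clusters on chromosome 2, 2405 held 99.99% of the 3 on chromosome 18 and 1709 held 99.96% of the 7 on chromosome 12. On chromosome 17, cluster 2249 held 76.3%. The 13 clusters on chromosome 17 took 11.0% and 10.6% of all cluster reads in the WT libraries, 15.3% in Alkbh1-/- and 11.5% in TzfpGTi/GTi.

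The sex chromosomes, which are silenced at pachytene, held few reads, as did autosomes 16 and 19. The 9 clusters on 16 held 0.00327% and the 2 on 19 held 0.00233% of the WT reads in the 296 clusters, less than X. A link to silencing was not tested. The 7 clusters on X held 0.0300% of the WT reads in the 296 clusters, and 2548 (chrX:64033501-64052500) held 78.5% of that. It had 339 and 101 CPM in WT, 563 in Alkbh1-/- and 163 in TzfpGTi/GTi, so the WT libraries themselves lay more than 3-fold apart. Cluster 2706 on Y had 0 and 17.9 reads in the WT libraries, 2 in Alkbh1-/- and 20.5 in TzfpGTi/GTi, which is too few for a comparison.

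Clusters side by side often differed widely in level. Apart from the overlaps, 21 pairs of neighbours lay within 20 kb of each other, 9 of them within 5 kb, and they took in 39 clusters. The pair 457 and 458 and the pair 461 and 462 on chromosome 4 have the same values, as given above, but are counted separately. The level of the more abundant member was a median of 14.4-fold that of its neighbour, at least 10-fold in 11 pairs and at least 100-fold in 7. Clusters 1708 and 1709 on chromosome 12 were 9.4 kb apart and stood at 9.39 and 39724 mean WT CPM. Clusters 1436 and 1437 on chromosome 10 were 3.8 kb apart and stood at 6128 and 2.10 CPM. Some of the sparse clusters thus lay close to a dense one. Clusters 2302 and 2303 on chromosome 17, 0.7 kb apart, stood at 1543 and 22145 CPM, which is the pair at the median ratio. The pair closest in level was 1204 and 1205 on chromosome 8, at 1.45 and 1.14 CPM.

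The spread between the WT libraries set what could be detected, and it depended on level. The log2 ratio of WT replicate 2 to replicate 1 had an SD of 0.696 over the 296 clusters and 0.671 over all 2209 clusters tested. Replicates lay within 2-fold of each other in 87.5% of the 296 and 88.6% of all. By the mean TMM-scaled level over all 4 libraries, mutants included, the SD was 0.156 over the 63 clusters above 1000 CPM, leaving out the 4.226 kb cluster, whose WT libraries differed 17.8-fold. It was 0.464 over the 30 clusters from 100 to 1000 CPM, 0.664 over the 38 from 10 to 100 CPM and 0.784 over the 164 under 10 CPM. A 2-fold change was thus several SD in the abundant clusters and close to 1 SD in the sparse ones. In 37 of the 296 the WT libraries were more than 2-fold apart, and in 26 of these the TzfpGTi/GTi library was nearer to WT replicate 2 and in 18 the Alkbh1-/- library nearer to WT replicate 1. Of all 2209 tested this held for 133 and 157 of 251 such clusters. The files of WT replicate 2 and TzfpGTi/GTi are named by 1 scheme, and those of WT replicate 1 and Alkbh1-/- by another. No label calls this a batch, its part in the results was not tested, and folds are therefore also given against each WT library.

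In TzfpGTi/GTi, 1 of the 296 clusters rose and 1 fell, next to each other on chromosome 7. All clusters with at least 40 summed reads were tested together (edgeR quasi-likelihood, Benjamini-Hochberg adjusted p under 0.05 over 2209 clusters). The share called was 0.338% of the 296 in each direction, against a background of 0.0453% higher and 0.0453% lower among all tested, which are these same clusters: no piC cluster was called. An unadjusted p under 0.05 was reached by 13 of the 296 (4.39%), against 1.86% of all tested. The median log2 fold was -0.03 over the 296 and -0.0049 over all tested. A 2-fold difference was seen in 21 of the 296 (7.09%), against 4.66% of all tested, and all 21 had mean WT levels of 25.1 CPM or less. The library lay above both WT libraries by more than their difference in 33 clusters (11.1%, background 13.4%) and below both in 43 (14.5%, background 15.0%), so these shares were near the background. Among the 63 clusters with a mean scaled level above 1000 CPM over the 4 libraries, other than the one called, folds ran from -0.22 to 0.11 on the log2 scale.

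The cluster that rose, the 4.226 kb cluster at mm9 chr7:132472368-132476593, went from 4 and 94 reads (WT replicates 1 and 2) to 57188 reads in TzfpGTi/GTi, and had 1858 in Alkbh1-/-. Every mutant value lay above both WT values. The log2 fold in TzfpGTi/GTi was 10.06 ± 1.14 (SE; edgeR adjusted p = 0.0322), and the level was 10360-fold that of WT replicate 1 and 580-fold that of WT replicate 2. The WT values were too far apart, at 0.392 and 6.14 CPM, for a single fold to describe the change. In density the cluster went from 0.0927 and 1.45 CPM per kb in WT to 60.2 in Alkbh1-/- and 917 in TzfpGTi/GTi. That made it the densest of all clusters in the TzfpGTi/GTi library, ahead of cluster 751 at 724 CPM per kb, while among the 296 it ranked 189 and 100 in the WT libraries. It is also the shortest of the 296 and the only one whose start is off the grid.

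The cluster that fell, 10.5 kb long at chr7:132448301-132458800, went from 257.5 and 383 reads in WT to 34 in TzfpGTi/GTi, and had 199.3 in Alkbh1-/-. Both WT libraries were above the TzfpGTi/GTi value, by 10.5-fold and 11.8-fold. The log2 fold was -3.47 ± 0.40 (SE; edgeR adjusted p = 0.0322). Cluster 1081 (chr7:132435801-132448200), which ends 0.1 kb before it, had 36 and 69 WT reads, 15 in Alkbh1-/- and 4 in TzfpGTi/GTi. Its TzfpGTi/GTi fold of -3.89 ± 0.63 did not pass (edgeR adjusted p = 0.213). Of 8 alternative settings that gave a test, 1081 passed in 1 and did not pass in 7. The 1 was that with no floor on reads (edgeR adjusted p = 5.54e-05). Beyond the 4.226 kb cluster, a 16.3 kb cluster (chr7:132493001-132509300) had 1610, 2861, 890 and 3597 reads in the same order and a fold of 0.46 ± 0.36 that did not pass. The 4 neighbours therefore did not share a direction. The calls of the 4.226 kb and 10.5 kb clusters held in 5 of 9 alternative settings that gave a test and were lost in 4. With library totals as the only scaling the adjusted p values were 0.996 and 0.785, and with the smaller of overlapping clusters left out 0.235 and 0.139.

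**Figure D4:**
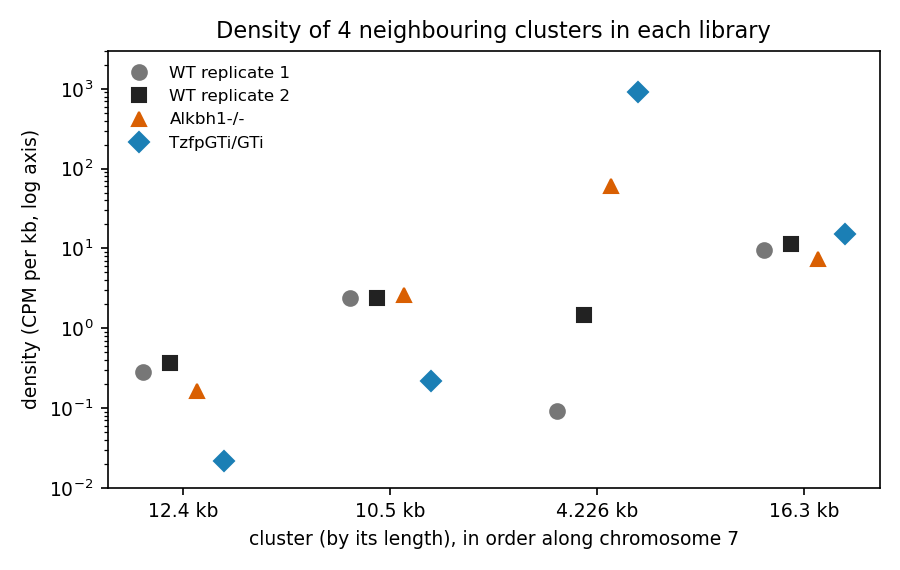
Density in CPM per kb (vertical axis, log scale) of cluster 1081 (12.4 kb) and the 10.5 kb, 4.226 kb and 16.3 kb clusters in their order along chromosome 7 (horizontal axis). Each symbol is 1 library, as named in the key. In the 4.226 kb cluster the TzfpGTi/GTi library stands at 917, Alkbh1-/- at 60.2 and the WT libraries at 0.0927 and 1.45, while in the 10.5 kb cluster the TzfpGTi/GTi library is below all others.

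The other clusters named for TzfpGTi/GTi did not pass. They were the furthest in each direction among those with at least 20 mean reads that lay outside both WT libraries by more than these differ. Cluster 1999 had 22.7 and 16.5 WT reads and 62.5 in TzfpGTi/GTi, a log2 fold of 1.38. Cluster 58 had 26.3 and 21.3 WT reads and 74.2 in TzfpGTi/GTi, a log2 fold of 1.37 ± 0.45, and cluster 1785 had 12.3, 13.2 and 38.0 reads, a fold of 1.33 ± 0.50. Clusters 1999 and 1785 are among the 71 that passed the floor only with the mutants' reads, which favours a higher mutant value. Cluster 2597 on X had 15, 29.8 and 66 reads and a fold of 1.32 ± 0.45. On the lower side, cluster 574 had 37.1, 60.5 and 29.2 reads, a fold of -0.99 ± 0.43, cluster 1393 had 29, 27 and 18 reads, a fold of -0.91 ± 0.51, and cluster 540 had 36.3, 40.3 and 25 reads, a fold of -0.87 ± 0.45. Adjusted p values of all of these were 1.00, and such counts lie where the WT libraries themselves spread most.

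In Alkbh1-/-, 2 of the 296 clusters rose, 1999 and 70, and none fell by edgeR's test. The share that rose was 0.676%, against a background of 0.272% of all tested, and the background of clusters that fell was 0%. An unadjusted p under 0.05 was reached by 46 of the 296 (15.5%), against 12.8% of all tested. DESeq2 called 4 higher (1103, 1999, 70 and 756) and 1 lower (468). A 2-fold difference was seen in 65 of the 296 (22.0%), against 16.7% of all tested. The library lay above both WT libraries by more than their difference in 57 clusters (19.3%, background 23.4%) and below both in 73 (24.7%, background 22.5%). The Alkbh1-/- library was the shallowest of the 4, and Sertoli cell markers in the messenger RNA of that genotype were lower, as given above. Their part in these differences was not tested.

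**Figure D5:**
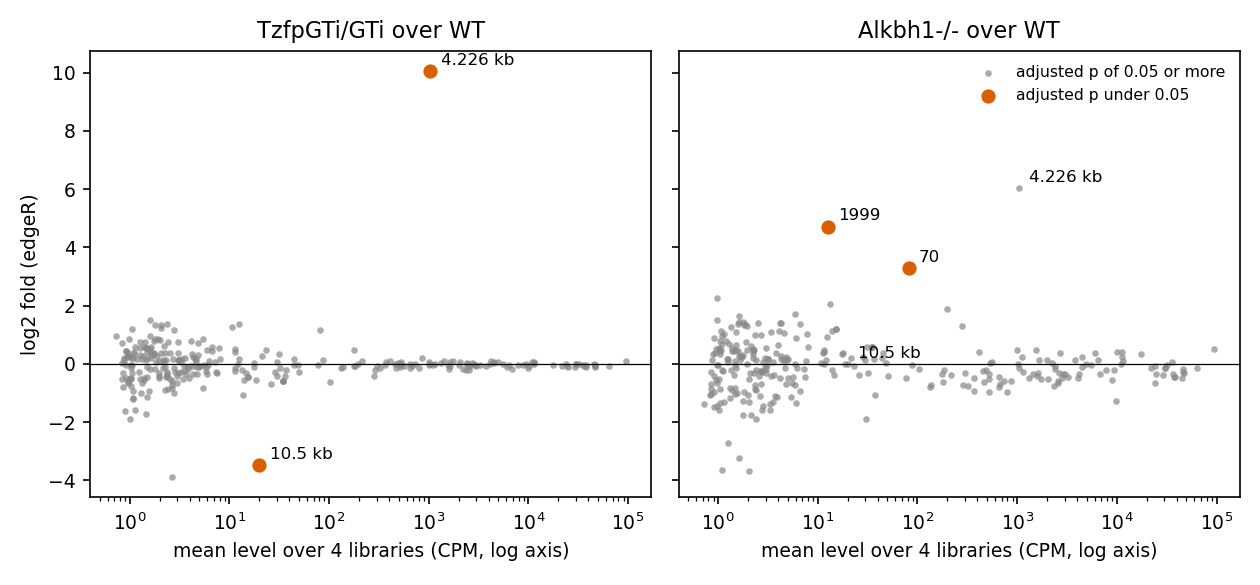
The edgeR log2 fold over WT (vertical axis) against the mean TMM-scaled level over the 4 libraries in CPM (horizontal axis, log scale) for the 296 clusters, in TzfpGTi/GTi on the left and Alkbh1-/- on the right. Orange points have an adjusted p under 0.05, and the 4.226 kb and 10.5 kb clusters of chromosome 7 are labelled by length in both panels. Above 1000 CPM, leaving out the 4.226 kb cluster, the TzfpGTi/GTi folds lie between -0.22 and 0.11. With the same cluster left out, the Alkbh1-/- folds there lie between -1.28 and 0.50.

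Cluster 1999 (chr14:95950701-95976300, 25.6 kb) rose from 22.7 and 16.5 reads in WT to 330.4 in Alkbh1-/-, with 62.5 in TzfpGTi/GTi. The Alkbh1-/- library was the highest by far, at 19.8-fold WT replicate 1 and 37.4-fold WT replicate 2. The log2 fold was 4.71 ± 0.41 (SE; edgeR adjusted p = 0.00802). It is among the 71 clusters that passed the floor only with the mutants' reads. Cluster 70 (chr1:56823401-56843600, 20.2 kb) rose from 326.1 and 218.1 reads to 1755, with 768.3 in TzfpGTi/GTi, and lay 7.41-fold and 14.6-fold above the WT libraries. Its log2 fold was 3.30 ± 0.44 (SE; edgeR adjusted p = 0.0466). The call of 1999 was lost in 3 of 9 alternative settings and that of 70 in 5. With library totals as the only scaling the adjusted p of both was 0.298, and with the TzfpGTi/GTi library left out of the fit it was 0.0967 and 0.122.

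Further clusters were high in Alkbh1-/- without passing. The 4.226 kb cluster that rose in TzfpGTi/GTi had an Alkbh1-/- fold of 6.04 ± 1.00 (adjusted p = 0.0614) and lay 640-fold and 35.8-fold above the WT libraries. Cluster 1103 (chr8:3742601-3793400) had 85.0 and 99.7 WT reads against 242.7 in Alkbh1-/-, 3.94-fold and 4.41-fold above on the TMM-scaled level, with an adjusted p of 0.0519. Cluster 756 (chr6:3122301-3154700) had 1568 and 1221 WT reads against 3363 in Alkbh1-/-, with 1706 in TzfpGTi/GTi, a fold of 1.89 ± 0.39 (adjusted p = 0.113). In these clusters the Alkbh1-/- library was above both WT libraries, and in 1103 and 756 the TzfpGTi/GTi library was not above both.

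Among the clusters lowest in Alkbh1-/-, cluster 468 had 312 and 711 WT reads against 84 in Alkbh1-/-, with 445.5 in TzfpGTi/GTi, a fold of -1.88 ± 0.46 (adjusted p = 0.171). Cluster 58 had 4 reads in Alkbh1-/- and a fold of -1.89 ± 0.69, and cluster 2146 had 23.3, 43.5 and 6.5 reads in WT and Alkbh1-/- and a fold of -1.77 ± 0.62. Clusters 2597 and 1976 were under 1 read in Alkbh1-/-, against 15 and 29.8 and 7.8 and 24.9 reads in WT, and at that depth no fold is given. None of the 5 passed. The lowest fold among the 100 clusters with the highest WT level, whose median was -0.29, was that of the dense cluster 1215. It stood at 8746 and 14112 CPM in WT, 5176 in Alkbh1-/- and 10627 in TzfpGTi/GTi, a fold of -1.28 ± 0.41 (edgeR adjusted p = 0.268).

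The abundant clusters lay more often below WT than above it in Alkbh1-/-. Of the 100 clusters with the highest WT level, 73 had a fold below 0 and 27 above, with a median of -0.29. The other 196 split into 90 below and 106 above, with a median of 0.10, and all 2209 tested into 1101 below and 1108 above. Without WT replicate 2 the median of the first 100 was -0.08, with 64 below 0. With library totals as the only scaling the median of all tested clusters moved to 0.113, and the splits became 65 below and 35 above with a median of -0.17, and 81 below and 115 above with a median of 0.21. In TzfpGTi/GTi, 70 of the first 100 were below 0 with TMM, 53 with library totals only, 90 without WT replicate 1 and 30 without WT replicate 2, so that split changed with the scaling and with the WT library. The first 100 were set by WT reads, which also enter the folds, and both comparisons share the WT libraries. These splits are given as counts without a test. By mean scaled level over the 4 libraries, the Alkbh1-/- median was -0.17 over the 63 clusters above 1000 CPM, -0.47 over the 30 from 100 to 1000 CPM, 0.21 over the 38 from 10 to 100 CPM and 0.0026 over the 164 under 10 CPM, of which 83 were above 0 and 81 below. The 14 piC clusters above 1000 CPM had a median of -0.42, with 13 below 0 and 1 above.

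Set against each other, the mutant libraries differed in none of the 296 clusters by edgeR's test, against a background of 0% in each direction among all 2209 tested. An unadjusted p under 0.05 was reached by 34 of the 296 (11.5%), against 8.47% of all tested. A 2-fold difference was seen in 62 of the 296 (20.9%), against 16.3% of all tested. DESeq2 called 5 higher in Alkbh1-/- (the 10.5 kb cluster, 1103, 1999, 70 and 756). Each mutant has 1 library, so this comparison takes its spread from the WT pair. The 10.5 kb cluster had a log2 fold of Alkbh1-/- over TzfpGTi/GTi of 3.47 ± 0.43 (adjusted p = 0.10). The fold of the 4.226 kb cluster was -4.02 ± 1.20 (adjusted p = 0.401) and that of 1999 was 3.34 ± 0.49 (adjusted p = 0.160). A call in 1 mutant and not in the other therefore does not show that the mutants differ at these clusters. Clusters 58 and 2597, which stood on opposite sides of WT in the mutants and were called in neither, had adjusted p values of 0.288 and 0.202 here.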

How the data were processed

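Small RNA from pachytene spermatocytes was measured in 4 libraries and messenger RNA in 2. Clusters were deposited by the authors on mm9 with an expected count per cluster and library, in which a read may be divided among positions. The messenger RNA table holds whole read counts per gene, as deposited by the authors. The submitters' processing notes list CASAVA 1.3, Novoalign, TopHat and bedtools and give no role for any of them. The sources used here do not say how borders and the class of a cluster were set. On chromosome 7 the authors' tables name the clusters of 10.5 kb, 4.226 kb and 16.3 kb 1082A, 1082B and 1082C. The numbered clusters and the marker lists were chosen with earlier results of these data known.

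Expected counts were rounded, and clusters with 40 or more reads summed over the 4 libraries were tested with edgeR 4.0.16 (quasi-likelihood, TMM, 1 coefficient per genotype, library sizes from all clusters, Benjamini-Hochberg over 2209 clusters, threshold 0.05) in R 4.3.3. Standard errors are the log2 fold divided by the root of F. Folds between single libraries are ratios of TMM-scaled CPM. The SD of log2 ratios and the comparison with the WT range used TMM-scaled CPM plus 0.1. Named clusters were the most abundant, densest, sparsest, longest and shortest, those called, and the furthest in each direction that had a mean of at least 20 reads over the 4 libraries and lay outside both WT libraries by more than these differ. The rule also took those with WT libraries furthest apart, those next to the floor and those with a letter after the number. It took the leading cluster of the 3 chromosomes with most WT reads as well. Not all of these are given above, and other clusters are given for overlaps, shared values or position. DESeq2 1.42.0, other scalings, floors and subsets of libraries were tried as alternatives. Messenger RNA gave marker sums only, with 1 library per genotype and no test. Total cluster reads per library are given with the results. They limit counting error, not the spread between libraries.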

Additional observations from a re-analysis of the deposited data

How the results depend on the processing

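The number of numbered clusters called in TzfpGTi/GTi was 2. It was 0 with library totals only, with a floor of 200 reads, with the smaller of overlapping clusters left out and with counts not rounded, and 3 with no floor, which added 1081 as lower. The number called in Alkbh1-/- was 2. It was 4 with DESeq2's size factors, 5 with DESeq2's Wald test, 8 with no floor, 1 with a floor of 200 reads or with counts not rounded, and 0 with library totals only, with the other mutant left out or with overlaps left out. Between the mutants it was 0, against 8 with no floor and 5 with DESeq2. Library sizes taken from the clusters kept, an alternative chosen after seeing the data, gave 3 calls in Alkbh1-/-, with 1103 at an adjusted p of 0.0484. The share of reads in numbered clusters moved from 93.3% to 94.4% with overlaps left out. The median density of 0.174 CPM per kb became 13.4 with a floor of 200 reads and 0.00236 with none, as the clusters counted change, and was 0.147 to 0.176 without each WT replicate. Of 43 named folds, those that changed sign lay between -0.0597 and 0.0731. Without 1 WT replicate 7 changed sign, to values from -0.1653 (2405 in TzfpGTi/GTi) to 0.0817 (the 10.5 kb cluster of chromosome 7 in Alkbh1-/-). Cluster 2405 in TzfpGTi/GTi was -0.0058 with DESeq2 or its size factors and -0.0121 with no floor, and 716 was 0.0017 with overlaps left out. In Alkbh1-/-, 716 was -0.0492 with no floor. There, the 10.5 kb cluster of chromosome 7 was 0.1148 with library totals, 0.0510 with a floor of 200, 0.0323 with 2 groups only, 0.0484 with overlaps left out and 0.0102 not rounded. Without each WT replicate the TzfpGTi/GTi fold of the 4.226 kb cluster was 9.15 or 12.77 and the Alkbh1-/- fold of 1999 was 4.19 or 5.04, with no test, since 1 library per genotype remains. Between the mutants, the fit on 2 groups only could not be made. No paired analysis was possible because only the WT libraries carry replicate numbers. Where not stated, the cause of a change was not tested.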
